A study of Petunia x hybrida with 9 samples.

Results

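Corollas of the petunia lines A4 and A9 differed widely in their RNA, and this account describes which functions set them apart. Both lines are labelled as overexpressors of PhADT in Petunia x hybrida cultivar Mitchell, and the series title says that the overexpressed form is a site-directed mutant. The comparison took 3 A4 and 3 A9 libraries of 9 libraries in all, and the other 3 came from wild-type corollas. FPKM stands for fragments per kilobase of locus, scaled to the fragments of the library. Loci were kept when their FPKM averaged 1 or more over these 6 libraries, which left 53477 of 94534 loci. Each locus is an assembled transcript region that the authors matched to its closest tomato protein. The FPKM of all loci with the same tomato protein were summed, which gave 12995 measured proteins of 16725 in the table. The 6386 kept loci without a tomato match enter only the counts of loci, and 2 loci whose closest protein is a viral polyprotein were left out. Names below are therefore those of tomato proteins, and a petunia transcript may serve another role.

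The label R353A stands on every sample, wild type included, so it does not set the groups apart. For a library, total RNA came from 8 or more corollas of greenhouse plants lit from 6 AM to 9 PM. Harvest was on day 2 after the flower opened, at 20 h. The promoter of the transgene is not given in the sources used here, and A4 and A9 are each 1 line. The labels do not say whether the 3 libraries of a line came from different plants, so the p-values measure the spread between these libraries only.

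As background, arogenate dehydratase turns arogenate into phenylalanine in plastids, the last step of the route that starts with the shikimate pathway. Petunia corollas feed phenylalanine into volatile benzenoids and phenylpropanoids, which the open flower gives off in the evening and at night. The same chorismate also leads to tyrosine and tryptophan, and phenylalanine leads to lignin precursors, flavonoids and anthocyanins. A corolla limb is at the same time a surface of expanding or fully expanded epidermal cells, so wall, cuticle and water channel proteins belong to its usual repertoire.

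The depth estimated from the steps of the FPKM values was 30.6 to 41.6 (in units of 1e6 fragments) in A4 and 31.9 to 43.1 in A9. Pearson correlations of log2(FPKM + 1) were 0.970 to 0.980 between libraries of a line and 0.908 to 0.941 between the lines. A protein was called when the Benjamini-Hochberg adjusted p of limma on log2(summed FPKM + 1) was under 0.05. By that rule 2382 proteins were called, 18.3% of those tested. The background share was 10.6% for proteins higher in A4 (1373) and 7.76% for proteins higher in A9 (1009). A difference of at least 2-fold was seen in 387 of the former (2.98% of all tested) and 193 of the latter (1.49%). The shares of 10.6% and 7.76% are the background for the count of each functional group below. A group near them is not set apart by its count. The libraries of the lines did not overlap in 41.6% of all proteins, which is the background for each such remark below. Over single loci the calls were 4190 higher in A4 (7.84%) and 2770 higher in A9 (5.18%), and at least 2-fold in 1204 (2.25%) and 742 (1.39%). Fold changes are given as log2 differences of that scale, A4 minus A9, with the standard error, and they understate the change of proteins at low levels.

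These counts depended on single libraries. The number of proteins higher in A4 was 593 without A4 replicate 3, 734 without A4 replicate 2, 829 without A9 replicate 1 and 892 without A9 replicate 3. The number higher in A9 was 245 without A4 replicate 3, 290 without A4 replicate 2, 337 without A9 replicate 3 and 399 without A9 replicate 1. A mean of at least 5 FPKM left 635 proteins higher in A4 and 620 higher in A9. For this reason the count of each functional group below is followed by its value without each single library that moved it by more than 1.5 times, and a call that an alternative ended is given with the adjusted p there.

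**Figure D1:**
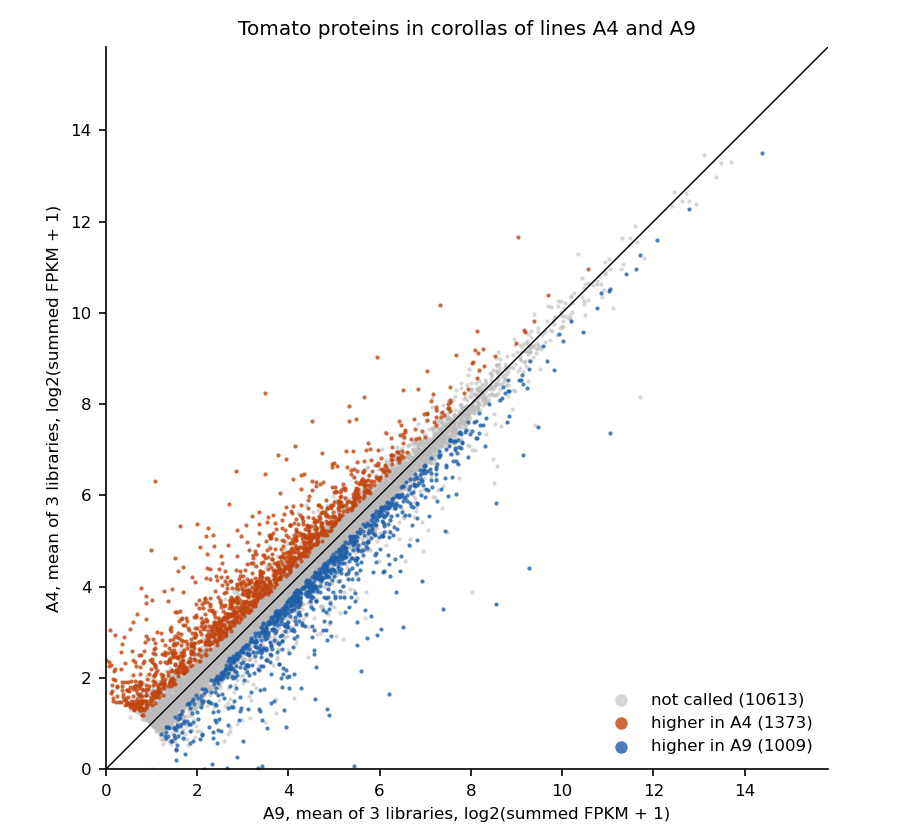
Each point is 1 of the 12995 tomato proteins, with the mean log2(summed FPKM + 1) over the 3 A9 libraries on the x axis and over the 3 A4 libraries on the y axis. The 1373 proteins called higher in A4 lie above the diagonal and the 1009 called higher in A9 below it.

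The targeted function came first. Over the 15 loci matched to prephenate dehydratases, the tomato name under which plant arogenate dehydratases fall, the summed FPKM was 2117, 2089 and 2404 in the A4 libraries and 3181, 3834 and 3375 in the A9 libraries. All A9 libraries lay above all A4 libraries. The means were 2203 ± 175 in A4 and 3464 ± 335 in A9 (SD, n = 3 each), a difference of -1260.2 FPKM with an exact two-sided permutation p of 0.1, the smallest that 20 splits allow. Wild type stood at 2911, 4037 and 3442, with a mean of 3464 ± 563 (SD, n = 3). All libraries labelled A4 lay below all wild-type libraries, and those labelled A9 overlapped wild type with the same rounded mean. The sum thus stood above wild type in neither line and did not show the overexpression that the labels give. It is carried by loci with high FPKM in all groups, so it cannot tell whether a single form was raised. A4 and A9 below stand for the libraries so labelled.

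Single loci showed where the lines parted. The locus XLOC_018765 was at 108, 80.8 and 97 FPKM in A9 and at 0.0291, 0 and 0.0579 in A4, where 0 means listed at 0. The 4 loci XLOC_018769 to XLOC_018772 had means of 24.7 to 36.5 FPKM in A9 and 0.675 to 1.17 in A4. These 5 loci were high in every A9 library and low in every A4 and wild-type library. The loci with the highest FPKM of this name also stood higher in A9. XLOC_053181, for example, was at 1469, 1759 and 1574 in A9, 1095, 1028 and 1192 in A4 and 1552, 1979 and 1634 in wild type. It is 1525 bases long, while XLOC_018769 to XLOC_018772 are 5416 to 7412 bases long. Whether these 4 long loci and XLOC_018765 are separate transcripts was not tested. Loci with near-identical sequence share reads, so how the reads were split between them is uncertain.

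Of the 4 dehydratase proteins measured, 2 were higher in A9 and 2 were not called. The count in A9 was 0 without A4 replicate 2 and 1 without A4 replicate 1, A4 replicate 3 or A9 replicate 3. The protein Solyc06g074530.1.1 had 1920.1, 1896 and 2191 summed FPKM in A4 and 2928, 3459.8 and 3072 in A9, a difference of -0.65 ± 0.12 (limma, adjusted p = 0.0146, and 0.0604 without A4 replicate 2). The protein Solyc11g066890.1.1 stood at 180.4, 177 and 198 in A4 and 238, 359 and 288 in A9 (-0.65 ± 0.15, limma, adjusted p = 0.0317, and 0.0625 to 0.0993 without A4 replicate 1, 2 or 3 or without A9 replicate 3 or with quantile normalization). Neither protein's libraries overlapped between the lines. The remaining 2, Solyc11g072520.1.1 and Solyc02g080620.2.1, differed by 0.05 ± 0.07 and 0.00 ± 0.11, and their libraries overlapped.

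**Figure D2:**
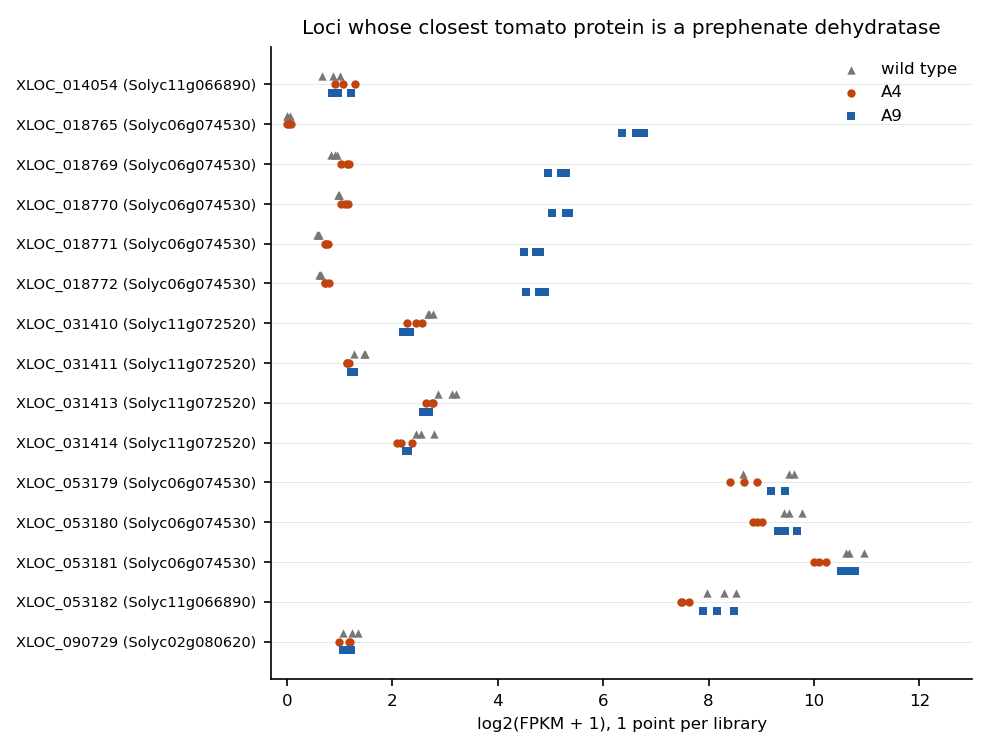
Rows are the 15 loci matched to a prephenate dehydratase, with the tomato protein in brackets, and the x axis is log2(FPKM + 1) with 1 point per library (triangles wild type, circles A4, squares A9). The loci XLOC_018765 and XLOC_018769 to XLOC_018772 separate A9 from both other groups, and the loci XLOC_053179 to XLOC_053182 are lowest on average in A4.

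Of 11 shikimate pathway proteins, which lead up to the dehydratase, 0 were higher in A4 by limma (1 at an unadjusted p under 0.05) and 2 were higher in A9 (0 without A4 replicate 2, A4 replicate 3 or A9 replicate 1), with a median difference of -0.19 beside -0.02 over all proteins. The first enzyme of the pathway, 3-deoxy-7-phosphoheptulonate synthase (Solyc04g074480.2.1), had 4929, 4852 and 5017 summed FPKM in A4 and 6871, 7403 and 6829 in A9. Its A9 libraries all lay above its A4 libraries, by -0.51 ± 0.10 (limma, adjusted p = 0.0212, and 0.0557 to 0.108 without A4 replicate 2 or 3 or without A9 replicate 1 or with quantile normalization or with no filter on low values). The enzyme that adds enolpyruvate, 3-phosphoshikimate 1-carboxyvinyltransferase (Solyc05g050980.2.1), stood at 1435, 1428 and 1385 in A4 and 2094, 2343 and 1828 in A9. This difference of -0.55 ± 0.12 had no overlap between the lines (limma, adjusted p = 0.0235, and 0.0698 to 0.0925 without A4 replicate 2 or 3 or without A9 replicate 1). Chorismate synthase (Solyc04g049350.2.1), the last enzyme of the pathway, differed by -0.04 ± 0.10 and overlapped.

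Prephenate dehydrogenases belong to the route from prephenate or arogenate to tyrosine. The protein Solyc09g011870.1.1 of that family was at 93, 83.9 and 97.1 summed FPKM in A4, 3.52, 5.72 and 11.3 in A9 and 1.01, 1.28 and 1.05 in wild type. The A4 libraries stood far above all others, by 3.68 ± 0.33 against A9 (limma, adjusted p = 0.00195). A relative, Solyc07g007590.1.1, was at 49.6, 41.2 and 56.8 in A4, 8.23, 8.71 and 10.9 in A9 and 4.22, 4.93 and 4.14 in wild type. It too was highest in all 3 A4 libraries (2.29 ± 0.15, limma, adjusted p = 0.00066). Of the 11 proteins of the phenylalanine and tyrosine branch these 2 were higher in A4, or 4 with the replicate number as a block, and the 2 dehydratases above were higher in A9. The A9 count of this branch was 0 without A4 replicate 2 and 1 without A4 replicate 1, A4 replicate 3 or A9 replicate 3. Of 16 tryptophan branch proteins 0 were called in either direction by limma (2 at an unadjusted p under 0.05, and 1 called higher in A9 when A9 replicate 1 was left out).

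Phenylpropanoid proteins were called in both directions when members at low levels were counted. Of 40 measured, 5 were higher in A4 (12.5%) and 5 higher in A9 (12.5%), beside 10.6% and 7.76% over all proteins. Their median difference was -0.07. The count in A4 was 1 without A4 replicate 3, and that in A9 was 1 without A4 replicate 3 or A9 replicate 1, 2 without A4 replicate 1 or A4 replicate 2 and 3 without A9 replicate 3. At a mean of at least 5 FPKM, 0 of 24 were higher in A4 by limma and 7 were higher in A9, with a median of -0.22. Phenylalanine ammonia-lyase, which takes ammonia off phenylalanine to give cinnamic acid, had several tomato proteins. Solyc05g056170.2.1 stood at 4746, 5835 and 5554 summed FPKM in A4 and 7899, 9118 and 6619 in A9, with no overlap, but did not pass (-0.54 ± 0.16, limma, adjusted p = 0.0589). Solyc09g007920.2.1, picked after its values were seen, was at 2419, 2452 and 2543 in A4 and 3259.7, 3542 and 3174 in A9. It passed with all 6 libraries (-0.43 ± 0.10, limma, adjusted p = 0.0304) and failed without any 1 of them, at adjusted p = 0.0521 to 0.106, and also with no filter on low values and with quantile normalization. Caffeoyl-CoA O-methyltransferase (Solyc02g093270.2.1), a methylating step toward lignin precursors, had 10101, 10209 and 9862 in A4 and 12893, 14787 and 12572 in A9. The groups did not overlap, and the adjusted p was 0.0618 (limma, -0.41 ± 0.12).

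Low-level phenylpropanoid proteins included larger differences. A cinnamoyl-CoA reductase-like protein (Solyc03g097170.2.1) stood at 5.21, 5.92 and 7.79 summed FPKM in A4 and 1.19, 0.721 and 1.31 in A9, 1.81 ± 0.17 apart (limma, adjusted p = 0.00229). Every A4 library was above every A9 library. A hydroxycinnamoyltransferase-like protein (Solyc08g007210.2.1), of a family that moves hydroxycinnamoyl groups to shikimate or quinate, was at 2.26, 1.04 and 1.31 in A4 and 14.6, 7.24 and 7.25 in A9. It was higher in every A9 library (-2.04 ± 0.29, limma, adjusted p = 0.00779). A second transferase, Solyc02g079490.2.1, chosen after its values were seen for its level, had 1596, 1338 and 1464 in A4 and 2093, 2016 and 2261 in A9 (-0.54 ± 0.11, limma, adjusted p = 0.021, and up to 0.0825 with 1 library left out, past the threshold without A4 replicate 2 or A4 replicate 3 or A9 replicate 1 or A9 replicate 3, and also past it with quantile normalization).

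Among 10 proteins named for volatile benzenoids and phenylpropenes, 1 was higher in A4 and 3 were higher in A9 (1 without A4 replicate 3). In A4 the count was 0 without A4 replicate 3, A9 replicate 1 or A9 replicate 2, and 2 with the replicate number as a block. The list holds 2 aromatic L-amino acid decarboxylases, a family that in petunia includes the enzyme that makes phenylacetaldehyde from phenylalanine. Solyc03g045020.2.1 stood at 372, 374 and 297 summed FPKM in A4, 626, 569 and 511 in A9 and 720.4, 691 and 769.8 in wild type. Its order was wild type, A9, A4 with no overlap, and A4 was below A9 by -0.71 ± 0.13 (limma, adjusted p = 0.0153). Solyc03g044120.1.1 had 1127, 1153 and 1038 in A4, 1882, 1685 and 1638 in A9 and 2124, 2259 and 2564 in wild type, in the same order. That difference was -0.65 ± 0.10 (limma, adjusted p = 0.00977, and 0.0506 without A4 replicate 3). Salicylic acid carboxyl methyltransferase (Solyc09g091550.2.1), of the family that makes methyl esters such as methyl benzoate, differed by 0.15 ± 0.17 and overlapped. Phenylcoumaran benzylic ether reductase (Solyc04g080550.2.1), of the family to which the petunia enzymes for eugenol and isoeugenol belong, was at 8189, 8584 and 7507 in A4 and 10937, 10138 and 10679 in A9. These did not overlap but did not pass (-0.39 ± 0.12, limma, adjusted p = 0.0631).

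The methyl cycle supplies S-adenosylmethionine to those methyltransferases. Of its 17 proteins 1 was higher in A4 (0 without A4 replicate 2, A4 replicate 3, A9 replicate 1 or A9 replicate 2 and 2 without A4 replicate 1) and 2 were higher in A9 (0 without A4 replicate 3 or A9 replicate 1 and 1 without A4 replicate 1, A4 replicate 2, A9 replicate 2 or A9 replicate 3). Adenosylhomocysteinase (Solyc09g092390.2.1), which clears the by-product of methyl transfer, had 2866, 3262 and 3130.0 summed FPKM in A4 and 4319.6, 4815 and 3932 in A9. The A9 libraries were all above the A4 libraries (-0.49 ± 0.12, limma, adjusted p = 0.0356, and 0.0608 to 0.116 without A4 replicate 1, 2 or 3 or without A9 replicate 1 or 2 or with no filter on low values). A second adenosylhomocysteinase at a far smaller sum, Solyc09g092380.2.1, differed by 0.55 ± 0.16 and was called only with the replicate number as a block (limma, adjusted p = 0.0594, and 0.0198 with the block).

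**Figure D3:**
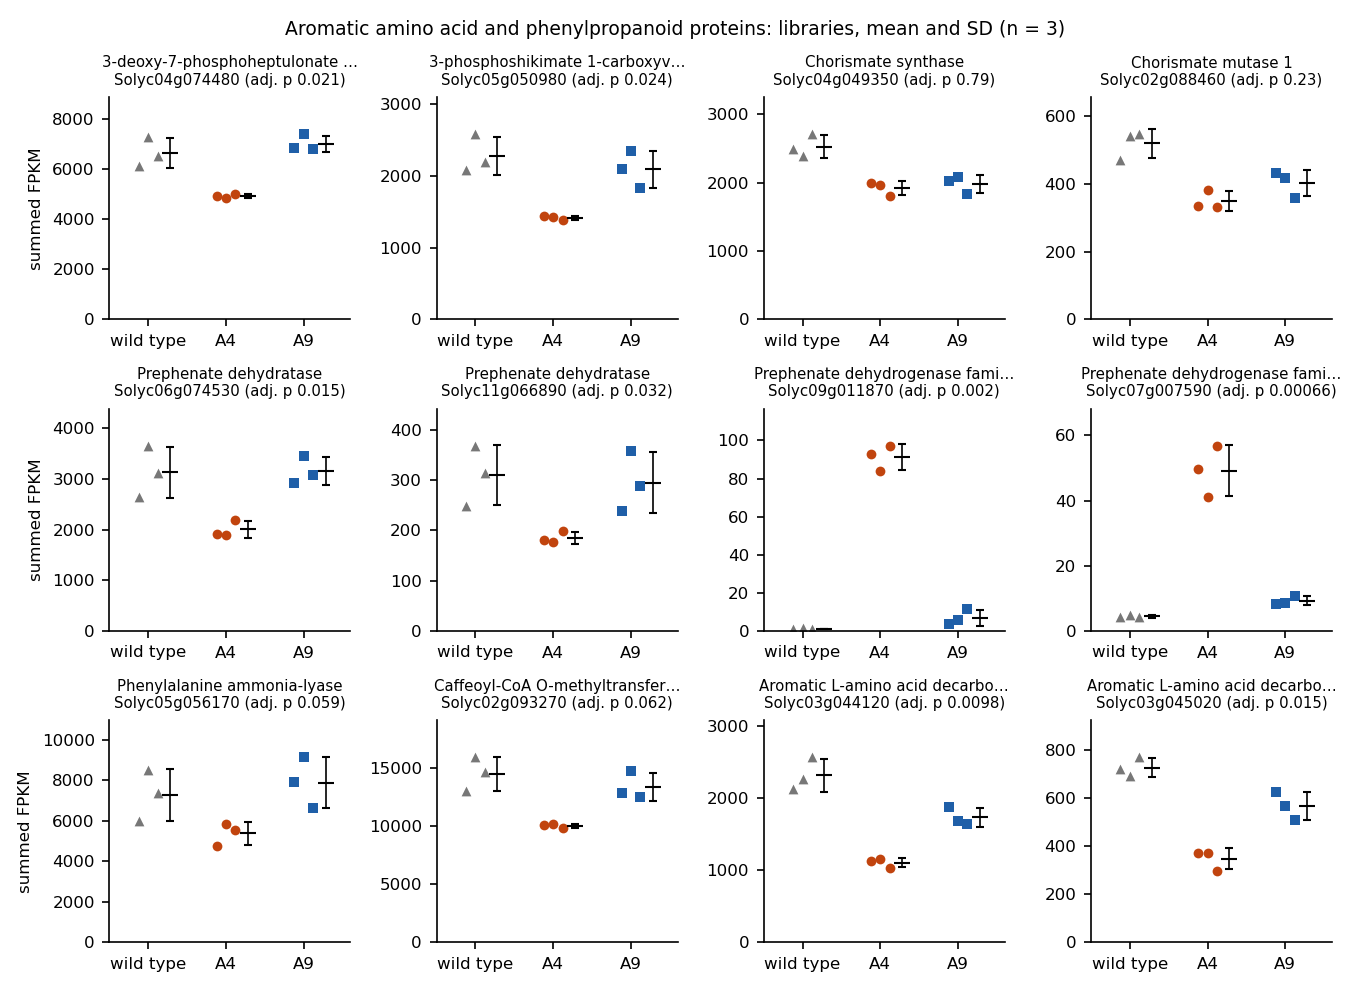
Each panel shows 1 protein with summed FPKM on the y axis from 0, 1 point per library, and the mean with its SD (n = 3) at the right of each group. In Solyc04g074480 and Solyc03g044120, for example, the A4 libraries lie below the A9 libraries, in Solyc04g049350 they overlap, and the 2 prephenate dehydrogenase family proteins are highest in A4.

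Flavonoid and anthocyanin proteins were called in 1 direction. Of 23 measured, 7 were higher in A4 and 0 were higher in A9 by limma (1 was higher in A9 at an unadjusted p under 0.05), with a median of 0.21. The count was 3 without A4 replicate 3 and 4 without A4 replicate 2. Flavanone 3-hydroxylase (Solyc02g083860.2.1), which makes dihydroflavonols, stood at 52.6, 50.5 and 61.4 summed FPKM in A4, 19.2, 14.2 and 22.7 in A9 and 11.7, 9.91 and 12.1 in wild type. All A4 libraries were above the rest (1.52 ± 0.17 against A9, limma, adjusted p = 0.00356). An anthocyanidin 3-O-glucosyltransferase (Solyc09g059170.1.1), of a family that attaches glucose to anthocyanidins, was at 17.6, 18.3 and 21.9 in A4, 0.738, 3.45 and 2.38 in A9 and 0.0199, 0.0187 and 0.0198 in wild type. It was among the 15 largest differences toward A4 (2.77 ± 0.33, limma, adjusted p = 0.00415). A dihydroflavonol 4-reductase family protein (Solyc05g051010.2.1) followed at 1.16 ± 0.16 (limma, adjusted p = 0.00747). Chalcone synthase (Solyc09g091510.2.1), the entry enzyme of the branch, stood at 7.32, 5.71 and 7.36 in A4 and 2.42, 3.88 and 3.56 in A9 (0.87 ± 0.16, limma, adjusted p = 0.0169, and 0.0691 without A4 replicate 3). The member with the highest summed FPKM, anthocyanidin synthase (Solyc11g013110.1.1), differed by 0.27 ± 0.18 and overlapped.

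Of 33 terpenoid and carotenoid proteins 7 were higher in A4 and 2 were higher in A9 (1 without A4 replicate 3, A9 replicate 1 or A9 replicate 3). A carotenoid isomerase-like protein (Solyc05g010180.2.1) was at 10.8, 11.9 and 11.4 summed FPKM in A4, 3.86, 3.67 and 4.04 in A9 and 11.6, 13.6 and 12.7 in wild type, so A9 stood apart from both other groups (1.35 ± 0.08, limma, adjusted p = 0.000517). A 3-hydroxy-3-methylglutaryl coenzyme A reductase (Solyc02g038740.2.1), of the cytosolic isoprenoid route, had 13.1, 14.3 and 14.7 in A4 and 3.63, 3.62 and 5.77 in A9 (1.52 ± 0.16, limma, adjusted p = 0.00307). On the plastid route, 1-deoxy-D-xylulose 5-phosphate synthase 2 (Solyc11g010850.1.1) differed by 0.81 ± 0.12 (limma, adjusted p = 0.00775). Carotenoid cleavage dioxygenase 4A (Solyc08g075480.2.1), which breaks carotenoids, went toward A9, at 3.92, 4.62 and 4.11 in A4 and 13.9, 8.99 and 9.34 in A9 (-1.15 ± 0.16, limma, adjusted p = 0.00779).

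Wall-loosening proteins held some of the largest differences, in both directions. Of 26 expansins and xyloglucan endotransglucosylases/hydrolases (XTH), 7 were higher in A4 and 6 were higher in A9. For expansins and xyloglucan enzymes the count in A9 was 1 without A4 replicate 2, A4 replicate 3 or A9 replicate 1, 3 without A9 replicate 3 and 10 without A4 replicate 1, and with the replicate number as a block it was 12. Expansins loosen walls without cutting them, and all 6 expansins called were higher in A4. The expansin Solyc04g081870.2.1 stood at 259.6, 282 and 369.5 summed FPKM in A4, 8.27, 9.43 and 13.4 in A9 and 0.221, 0.776 and 0.227 in wild type. It was highest in all A4 libraries, by 4.75 ± 0.20 against A9 (limma, adjusted p = 0.000121), and A9 in turn lay above wild type. The expansin Solyc06g049050.2.1 was at 37.6, 46.3 and 38.3 in A4, 3.14, 3.53 and 2.4 in A9 and 0.316, 2.01 and 0.501 in wild type. Its difference was 3.38 ± 0.14 (limma, adjusted p = 0.000117).

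XTH enzymes cut and rejoin xyloglucan chains, and 6 of the 7 called were higher in A9. XTH 8 (Solyc09g092520.2.1) had 90.8, 5.84 and 14.5 summed FPKM in A4, 1117, 223 and 956 in A9 and 915, 253 and 1019.8 in wild type. No A4 library reached any A9 library, and replicate 2 was the lowest in each of the 3 groups. The difference was -4.86 ± 1.03 (limma, adjusted p = 0.0237, and 0.0643 to 0.0894 without A4 replicate 2 or 3 or without A9 replicate 1 or 3). XTH 9 (Solyc03g093080.2.1) had the same low replicate 2, at 1214, 46.5 and 393 in A4 and 3137, 2061 and 5747 in A9, and was called only with the replicate number as a block (limma, adjusted p = 0.0695, and 0.0346 with the block). Among the 15 largest differences toward A9, replicate 2 was the lowest library in 11 proteins in A4, 11 in A9 and 12 in wild type, while among the 15 toward A4 it was lowest in 4, 5 and 3. XTH 1 (Solyc02g080160.2.1) went the other way, with 28.3, 26.8 and 31.6 in A4 and 4.15, 2.63 and 6.39 in A9 (2.53 ± 0.24, limma, adjusted p = 0.00238).

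Pectin enzymes were higher in A4 in 16 of 52 cases, beside the background of 10.6%, and 8 were higher in A9, beside 7.76%. For pectin enzymes the counts were 9 without A4 replicate 3 for A4 and 3 without A4 replicate 3 and 4 without A4 replicate 2, A9 replicate 1 or A9 replicate 3 for A9. Pectate lyases cleave pectin between its galacturonate units. Pectate lyase 1-27 (Solyc09g061890.2.1) was at 73.4, 71.3 and 94.1 summed FPKM in A4, 0.815, 0.831 and 1.81 in A9 and 0, 0.255 and 0 in wild type. It was high in every A4 library and near 0 elsewhere, and its 5.25 ± 0.20 was the largest difference toward A4 by the rule for named proteins (limma, adjusted p = 0.000108). A second protein of that name, Solyc06g083580.2.1, stood at 31.7, 33.1 and 57.7 in A4 and 1.7, 1.75 and 2.98 in A9. Its groups were also far apart (3.70 ± 0.26, limma, adjusted p = 0.000848). A pectate lyase (Solyc03g111690.2.1) and a pectin acetyl esterase-like protein (Solyc01g102350.2.1), which takes acetyl groups off pectin, differed by 2.03 ± 0.15 and 1.90 ± 0.15 (limma, adjusted p = 0.000913 and 0.00125). The pectinesterases, which take methyl groups off pectin, were on both sides. The pectinesterase Solyc01g099930.2.1 was at 129, 147 and 195 in A4 and 80.6, 92.3 and 105 in A9, and Solyc06g034370.1.1 was at 148, 166 and 185 in A4 and 232, 258 and 209 in A9. Both calls were lost under alternatives (limma, adjusted p of 0.0626 to 0.0931 without A4 replicate 2 or 3 or without A9 replicate 1 or 2 for the former, and of 0.0503 to 0.103 without A4 replicate 1, 2 or 3 or without A9 replicate 1, 2 or 3 or with quantile normalization for the latter).

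Cellulose and structural wall proteins were called in both directions, 8 of 39 higher in A4 and 9 higher in A9. For cellulose and structural wall proteins the count in A9 was 1 without A4 replicate 3, 2 without A9 replicate 1 or A9 replicate 3 and 4 without A4 replicate 2. Endoglucanase 1 (Solyc08g082250.2.1), of the family that cuts glucan chains, stood at 26.9, 31.2 and 45.8 summed FPKM in A4, 4.01, 3.72 and 4.47 in A9 and 0.741, 1.32 and 1.71 in wild type. The A4 libraries were above all others (2.78 ± 0.19 against A9, limma, adjusted p = 0.000757). A cellulose synthase-like C protein (Solyc08g006310.2.1), of the family that builds the xyloglucan backbone, differed by 1.77 ± 0.16 (limma, adjusted p = 0.00209). Fasciclin-like arabinogalactan protein 2 (Solyc07g048090.1.1), a cell-surface glycoprotein, was at 18.8, 19.5 and 28.7 in A4 and 5.24, 3.77 and 5.66 in A9. Its relative 4 (Solyc07g053540.1.1) stood at 4.35, 0.335 and 0.679 in A4 and 63.1, 5.18 and 63.5 in A9, the opposite direction, with replicate 2 again lowest in both lines. Relative 2 differed by 1.97 ± 0.20 (limma, adjusted p = 0.00249) and relative 4 by -3.69 ± 0.99 (limma, adjusted p = 0.0468, and 0.0524 to 0.142 without A4 replicate 2 or 3 or without A9 replicate 1 or 3 or at a mean of at least 5 FPKM or with the highest locus alone).

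**Figure D4:**
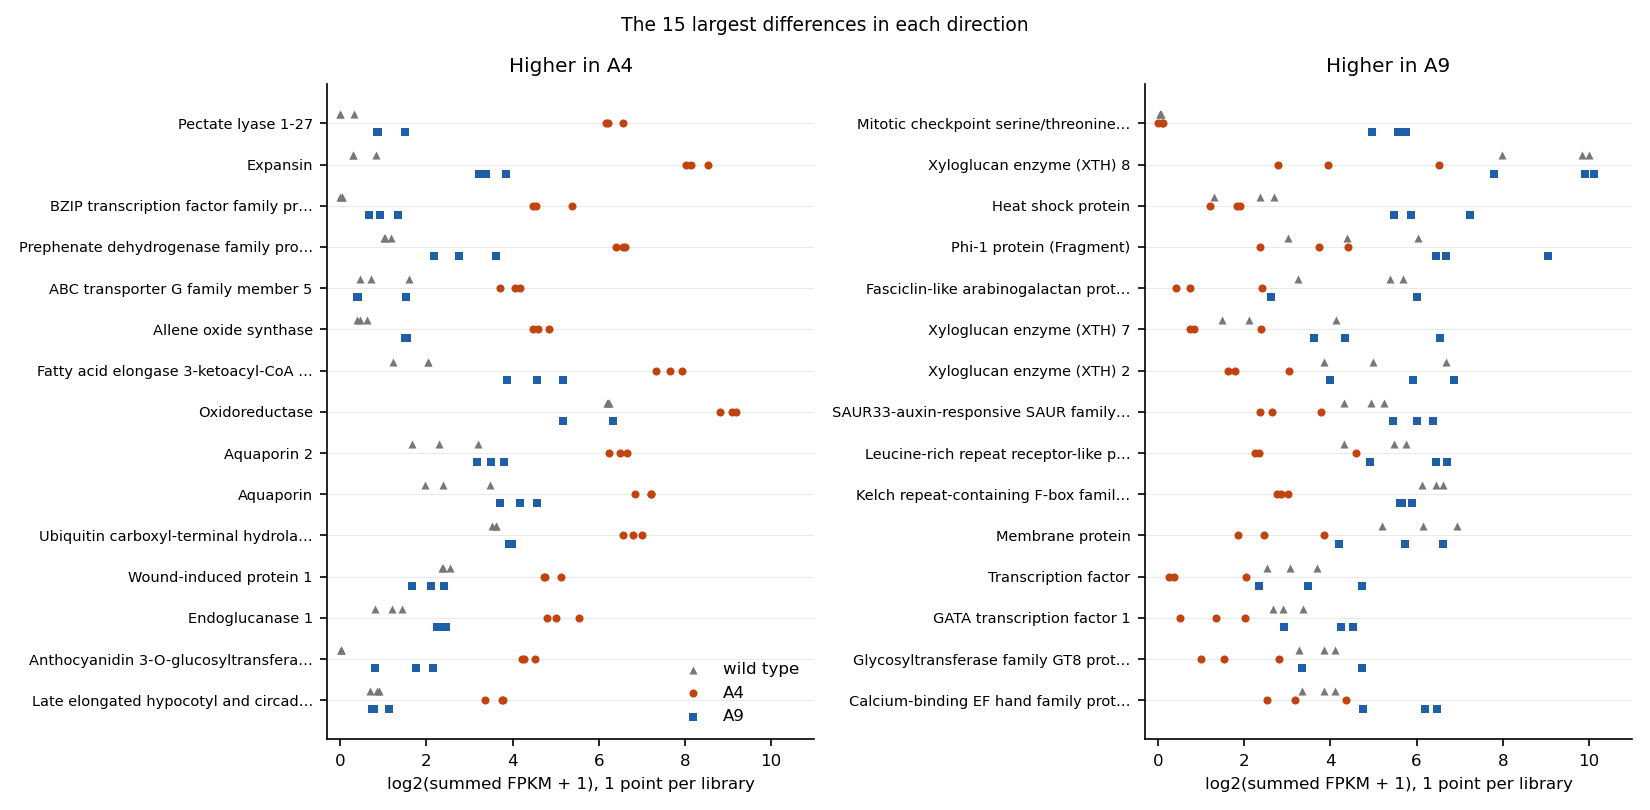
Rows are the 15 proteins with the largest called differences in each direction, and the x axis is log2(summed FPKM + 1) with 1 point per library (triangles wild type, circles A4, squares A9). On the left the 3 A4 libraries stand together above the rest, and on the right many proteins spread widely within a line.

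Surface lipid proteins numbered 40, of which 8 were higher in A4 and 6 were higher in A9. For very long chain lipid and cuticle the count in A9 was 1 without A4 replicate 3, 2 without A4 replicate 2 or A9 replicate 3 and 3 without A9 replicate 1, and with the replicate number as a block it was 10. A 3-ketoacyl-CoA synthase (Solyc02g085870.2.1), of the enzymes that lengthen fatty acids for waxes and cutin, had 159, 199 and 242 summed FPKM in A4, 22.5, 13.5 and 34.8 in A9 and 3.12, 1.33 and 3.08 in wild type. The order was A4, A9, wild type with no overlap, and A4 was above A9 by 3.11 ± 0.33 (limma, adjusted p = 0.00286). The synthase Solyc05g009270.2.1 differed by 1.91 ± 0.12 at lower levels (limma, adjusted p = 0.00066). Lipid transfer proteins carry lipids toward the surface. The non-specific lipid-transfer protein Solyc10g075110.1.1 was at 90.1, 93.1 and 112 in A4, 37.1, 25 and 28.8 in A9 and 0.542, 1.18 and 1.22 in wild type. It had the same order of groups (1.68 ± 0.16, limma, adjusted p = 0.00226), as had Solyc10g075050.1.1 (2.50 ± 0.17, limma, adjusted p = 0.000721). The lipid transfer protein Solyc08g079250.2.1 stood at 294, 325 and 317 in A4 and 511, 398 and 453 in A9, on the other side (-0.53 ± 0.11, limma, adjusted p = 0.0234, and 0.055 to 0.0787 without A4 replicate 1, 2 or 3 or without A9 replicate 1 or 3).

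Of 23 aquaporins, membrane channels for water, 4 were higher in A4 and 2 were higher in A9 (0 without A4 replicate 1, A4 replicate 2, A4 replicate 3, A9 replicate 1 or A9 replicate 3 and 5 without A9 replicate 2). Aquaporin 2 (Solyc09g007760.2.1) was at 73.9, 89.1 and 100.1 summed FPKM in A4, 7.97, 10.3 and 13 in A9 and 3.91, 8.17 and 2.18 in wild type. The aquaporin Solyc10g084120.1.1 was at 113, 147 and 147 in A4 and 12, 17.1 and 22.7 in A9. In both, and in the aquaporin-like protein Solyc03g096290.2.1, all A4 libraries lay above all A9 libraries. The differences were 2.97 ± 0.18, 2.94 ± 0.23 and 2.26 ± 0.16 (limma, adjusted p = 0.000655, 0.00109 and 0.000811). The aquaporins with the highest summed FPKM, Solyc10g055630.1.1 and Solyc06g074820.2.1, differed by -0.32 ± 0.27 and -0.69 ± 0.41 and overlapped.

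ABC transporters, pumps that move lipids, hormones and secondary products across membranes, had 14 of 50 higher in A4 and 2 higher in A9, or 4 in A9 with the replicate number as a block and 1 without A4 replicate 2, A4 replicate 3, A9 replicate 1 or A9 replicate 3. For ABC transporters the count in A4 was 9 without A4 replicate 3. ABC transporter G family member 5 (Solyc05g056470.1.1) stood at 12, 15.6 and 17.1 summed FPKM in A4 and 0.304, 0.321 and 1.86 in A9, 3.21 ± 0.32 apart (limma, adjusted p = 0.00246). The transporter Solyc08g067610.2.1 had 35.5, 36.9 and 50.7 in A4 and 9.5, 8.6 and 9.81 in A9 (2.01 ± 0.14, limma, adjusted p = 0.000913). Both were above A9 in every A4 library. Family member 1 (Solyc05g054890.2.1) was on the A9 side, at 99.4, 124 and 116 in A4 and 249, 263 and 226 in A9 (-1.11 ± 0.11, limma, adjusted p = 0.00246). G family member 11 (Solyc01g105450.2.1), in Arabidopsis an exporter of cuticle lipids, had 1390.2, 1682 and 1277 in A4, 2087, 1793 and 1924 in A9 and 3450.2, 3904 and 4264 in wild type. Both lines were below wild type, and their difference of -0.42 ± 0.13 did not pass (limma, adjusted p = 0.0702). Of 28 amino acid transporters 1 was higher in A4, or 3 with the block, and 4 were higher in A9. For amino acid transporters the count in A9 was 0 without A4 replicate 2, A4 replicate 3, A9 replicate 1 or A9 replicate 3 and 2 without A9 replicate 2. The A4 case, Solyc06g050800.2.1, was at 15.4, 22.6 and 24.6 in A4 and 1.12, 2.65 and 3.27 in A9 (2.74 ± 0.29, limma, adjusted p = 0.00291).

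Polyamine enzymes were higher in A4 in 4 of 8 cases and higher in A9 in none of the 8 by limma (0 at an unadjusted p under 0.05, and 1 when A9 replicate 2 was left out). For polyamine the count in A4 was 1 without A4 replicate 3 and 2 without A4 replicate 2 or A9 replicate 3. Arginine decarboxylase (Solyc10g054440.1.1), which starts putrescine synthesis from arginine, had 218, 225 and 304 summed FPKM in A4, 32.1, 35.3 and 53.3 in A9 and 19.3, 23.2 and 24.3 in wild type. The order A4, A9, wild type held without overlap, and A4 was above A9 by 2.62 ± 0.22 (limma, adjusted p = 0.00139). S-adenosylmethionine decarboxylase (Solyc02g089610.1.1), which supplies aminopropyl groups for spermidine, was at 166, 97.3 and 128 in A4 and 55.5, 43.4 and 66.6 in A9 (1.22 ± 0.23, limma, adjusted p = 0.017, and 0.066 without A4 replicate 3). Ornithine decarboxylase (Solyc04g082030.1.1), the other entry to putrescine, stood at 12.5, 17.2 and 16.8 in A4 and 8.54, 4.1 and 7.18 in A9 (1.15 ± 0.24, limma, adjusted p = 0.0239, and 0.0513 to 0.0894 without A4 replicate 2 or 3 or without A9 replicate 3).

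Of 33 sugar metabolism and transport proteins 5 were higher in A4 (3 without A4 replicate 3, A9 replicate 1 or A9 replicate 3) and 2 were higher in A9 (1 without A4 replicate 1, A4 replicate 3, A9 replicate 1 or A9 replicate 3). These shares were 15.2% and 6.06%, beside 10.6% and 7.76% over all proteins. A sucrose cleavage protein-like entry (Solyc02g093370.2.1) was at 4.97, 4.81 and 8.15 summed FPKM in A4 and 0.917, 1.13 and 1.29 in A9, with no overlap (1.70 ± 0.19, limma, adjusted p = 0.00356). Neutral invertases, which split sucrose, went both ways, with Solyc01g100810.2.1 at 0.49 ± 0.07 and Solyc04g081440.2.1 at -0.46 ± 0.07 (limma, adjusted p = 0.00889 and 0.0103). Sucrose synthase (Solyc09g098590.2.1) differed by 0.04 ± 0.08 and overlapped. Peroxisomal beta-oxidation, which in petunia shortens cinnamoyl chains toward benzoic acid, had 1 of 13 proteins higher in A4 (0 without A4 replicate 2, A4 replicate 3, A9 replicate 1 or A9 replicate 3 and 3 without A4 replicate 1, and 2 with the replicate number as a block) and 0 higher in A9 by limma (1 at an unadjusted p under 0.05). The 3-ketoacyl CoA thiolase 1 (Solyc09g061840.2.1), whose petunia relative acts in benzoic acid synthesis, was at 688, 932 and 739 in A4, 807, 1012 and 828 in A9 and 1217, 1611 and 1607 in wild type. The lines overlapped and both were below wild type.

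GDP-L-galactose phosphorylase 1 (Solyc06g073320.2.1), a committed step of ascorbate synthesis, lies outside the groups above and was picked after its values were seen. It was at 2632, 3156 and 4010.2 summed FPKM in A4, 426, 437 and 755 in A9 and 377, 446 and 453 in wild type. Every A4 library was above every other library, by 2.63 ± 0.26 against A9 (limma, adjusted p = 0.00249, and 0.00208 to 0.0142 with 1 library left out). Early light-induced protein 7 (Solyc09g082690.2.1), a chloroplast protein of the light-harvesting kind, was picked in the same way, with 342, 468 and 472 in A4 and 113, 126 and 155 in A9 (1.69 ± 0.17, limma, adjusted p = 0.00258). ASR4 (Solyc04g071620.2.1), of a family named for abscisic acid, stress and ripening, had the largest summed FPKM of all called proteins, 13272, 10723 and 10866 in A4 and 19153, 25426 and 20206 in A9. It was higher in A9 (-0.89 ± 0.17, limma, adjusted p = 0.0173, and up to 0.0873 with 1 library left out, past the threshold without A4 replicate 2 or A4 replicate 3, and also past it with quantile normalization).

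Auxin proteins were called higher in A4 in 26 of 100 cases, beside the background of 10.6%, and 3 were higher in A9, with a median of 0.17. For auxin the count in A4 was 9 without A4 replicate 3, 12 without A4 replicate 2, 16 without A9 replicate 1 and 17 without A9 replicate 3, and the A9 count was 1 without A4 replicate 2, A4 replicate 3 or A9 replicate 1 and 6 without A4 replicate 1 and 6 with the replicate number as a block. At a mean of at least 5 FPKM, 8 of 59 auxin proteins were higher in A4 and 1 was higher in A9. Auxin response factor 19 (Solyc07g016180.2.1), a DNA-binding factor of the auxin pathway, stood at 14.8, 15.8 and 20 summed FPKM in A4, 3.97, 4.82 and 4.46 in A9 and 5.54, 6.12 and 5.95 in wild type. The A4 libraries were above all others (1.71 ± 0.13 against A9, limma, adjusted p = 0.00101). SAUR proteins are small auxin-induced growth proteins, and 3 of those named, Solyc01g110940.2.1, Solyc10g054770.1.1 and Solyc04g081270.1.1, were higher in A4 by 1.73 ± 0.11, 2.64 ± 0.27 and 2.17 ± 0.23 (limma, adjusted p = 0.00066, 0.0028 and 0.0028). SAUR33 (Solyc12g009290.1.1) was among the largest toward A9, at 12.8, 4.18 and 5.21 in A4 and 63.3, 42.5 and 82.9 in A9 (-3.02 ± 0.40, limma, adjusted p = 0.00632). The auxin proteins with the highest summed FPKM, a GH3-like protein (Solyc10g008520.2.1) and the auxin responsive protein Solyc09g083290.2.1, differed by 0.18 ± 0.11 and -0.38 ± 0.17 and did not pass.

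Of 15 jasmonate proteins 1 was higher in A4 (2 without A4 replicate 2 or A9 replicate 1) and 3 were higher in A9 (1 without A4 replicate 2, A4 replicate 3, A9 replicate 1 or A9 replicate 3). An allene oxide synthase (Solyc10g007960.1.1), of a family in which some members act toward jasmonate, was at 23.1, 27.7 and 21.1 summed FPKM in A4, 1.93, 1.82 and 1.84 in A9 and 0.545, 0.375 and 0.314 in wild type. It was highest in all A4 libraries (3.12 ± 0.11, limma, adjusted p = 0.000108). Methyl jasmonate esterase (Solyc03g070380.2.1), which frees jasmonate from its methyl ester, was at 16, 15.8 and 22.1 in A4, 68.2, 60.7 and 99.4 in A9 and 76, 91.9 and 90.4 in wild type. Here A4 was lower than both other groups (-2.0 ± 0.21, limma, adjusted p = 0.00286). Allene oxide cyclase (Solyc02g085730.2.1), which follows the synthase step on the jasmonate route, had 26.5, 24.7 and 27 in A4 and 35.4, 33.2 and 37.6 in A9 (-0.43 ± 0.08, limma, adjusted p = 0.0172, and 0.0527 to 0.0643 without A4 replicate 2 or 3 or without A9 replicate 1 or 3).

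Ethylene synthesis and signalling held 6 of 36 proteins higher in A4 and 3 higher in A9. For ethylene synthesis and signalling the count in A4 was 1 without A4 replicate 3, and the A9 count was 0 without A4 replicate 3 and 1 without A4 replicate 2 and 6 with the replicate number as a block. The last enzyme of ethylene synthesis, 1-aminocyclopropane-1-carboxylate oxidase, had members on both sides. Solyc01g067620.2.1 was at 28.3, 19.6 and 27.2 summed FPKM in A4 and 10, 9.5 and 9.92 in A9 (1.25 ± 0.14, limma, adjusted p = 0.00356). Solyc02g036350.2.1 was at 19.7, 19.1 and 17.5 in A4 and 51.1, 31.9 and 34.4 in A9 (-0.99 ± 0.17, limma, adjusted p = 0.0143, and 0.0605 without A4 replicate 3). Among 46 ethylene response factors 4 were higher in A4 and 6 were higher in A9, and the A4 count was 1 without A4 replicate 2 or A4 replicate 3 and 2 without A9 replicate 1 or A9 replicate 3. Factor 11 (Solyc12g009490.1.1) stood at 7.14, 6.11 and 9.1 in A4 and 0.317, 0.474 and 0.518 in A9, and factor 4 (Solyc12g008350.1.1) at 8.88, 6.06 and 7.15 in A4 and 22.2, 29.3 and 27.7 in A9. Neither pair overlapped, and they differed by 2.54 ± 0.15 and -1.72 ± 0.16 (limma, adjusted p = 0.00051 and 0.00192).

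Clock and CONSTANS-like proteins, which time gene activity over the day, included 7 of 34 higher in A4 and 4 higher in A9. For circadian clock and CONSTANS-like the counts were 4 without A4 replicate 2 or A4 replicate 3 for A4 and 2 without A4 replicate 2, A4 replicate 3, A9 replicate 1 or A9 replicate 3 for A9. All libraries were harvested at 20 h by the labels. The protein named late elongated hypocotyl and circadian clock associated-1-like (Solyc10g005080.2.1), whose Arabidopsis relatives peak around dawn, stood at 9.27, 12.7 and 12.5 summed FPKM in A4, 0.661, 0.725 and 1.2 in A9 and 0.854, 0.812 and 0.614 in wild type. All A4 libraries were above the rest (2.74 ± 0.16 against A9, limma, adjusted p = 0.000526). A CONSTANS-like protein (Solyc07g006630.2.1) was at 144, 133 and 128 in A4, 279, 308 and 364 in A9 and 373, 516 and 481 in wild type. Wild type was highest and A4 lowest, with no overlap (-1.22 ± 0.12, limma, adjusted p = 0.00234). CONSTANS-LIKE 1 (Solyc06g073180.2.1) was at 66.4, 78.3 and 80 in A4 and 20.8, 21 and 34.6 in A9 (1.55 ± 0.20, limma, adjusted p = 0.00578). GIGANTEA 2 (Solyc12g056650.1.1), an evening clock protein in Arabidopsis, differed by -0.12 ± 0.09 and overlapped.

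Other regulators were spread over both lines. MYB factors are the family that includes the known regulators of petunia scent and pigment. Of 79, 11 were higher in A4 (13.9%) and 4 higher in A9 (5.06%), beside 10.6% and 7.76% over all proteins. For MYB factors the counts were 7 without A4 replicate 2 or A4 replicate 3 for A4 and 1 without A4 replicate 2 or A4 replicate 3 and 2 without A4 replicate 1 or A9 replicate 3 for A9. At a mean of at least 5 FPKM, 2 of 39 MYB factors were higher in A4 and 2 were higher in A9. The MYB factor Solyc01g094360.2.1 stood at 12.9, 11.8 and 17.3 summed FPKM in A4 and 2.45, 1.57 and 2.72 in A9, and Solyc07g052490.2.1 at 1.63, 1.37 and 1.53 in A4 and 8.34, 7.87 and 6.97 in A9. These differed by 2.21 ± 0.19 and -1.80 ± 0.10 with no overlap (limma, adjusted p = 0.00158 and 0.000482). The MYB factor with the highest summed FPKM, Solyc08g079270.2.1, differed by -0.01 ± 0.10 and overlapped. Of 49 bZIP factors 7 were higher in A4 and 6 were higher in A9. For bZIP factors the counts were 3 without A4 replicate 3 and 4 without A9 replicate 3 for A4 and 0 without A4 replicate 3, 1 without A4 replicate 2 or A9 replicate 3, 2 without A9 replicate 1 or A9 replicate 2 and 3 without A4 replicate 1 for A9. The bZIP factor Solyc07g053450.2.1, of a family of leucine zipper DNA-binding proteins, was at 22.3, 21.1 and 40.4 in A4, 0.582, 0.906 and 1.55 in A9 and 0.0227, 0.0214 and 0 in wild type. It was high in the A4 libraries and low in the rest, by 3.81 ± 0.28 against A9 (limma, adjusted p = 0.000981).

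WRKY and NAC factors were called in 6 of 52 cases (11.5%) in each direction, beside 10.6% and 7.76% over all proteins. For WRKY and NAC factors the counts were 0 without A4 replicate 2, A4 replicate 3 or A9 replicate 1, 2 without A4 replicate 1 and 3 without A9 replicate 3 for A4 and 1 without A4 replicate 3, 2 without A9 replicate 1 or A9 replicate 3 and 3 without A4 replicate 2 for A9. WRKY transcription factor 3 (Solyc08g006320.2.1) was at 23.6, 24.4 and 27.7 summed FPKM in A4 and 35.6, 35.3 and 37.2 in A9 (-0.50 ± 0.08, limma, adjusted p = 0.0127, and 0.0501 with the highest locus alone). F-box proteins, which pick targets for ubiquitin ligases, had 25 of 166 higher in A4 and 14 higher in A9. For F-box proteins the counts were 10 without A4 replicate 2, A4 replicate 3 or A9 replicate 1 and 13 without A9 replicate 3 for A4 and 7 without A4 replicate 3 or A9 replicate 1 and 8 without A4 replicate 2 or A9 replicate 3 for A9. A kelch repeat-containing F-box protein (Solyc06g066770.1.1) was at 7.1, 5.77 and 6.24 in A4, 58.7, 47.9 and 49.5 in A9 and 97.6, 68.5 and 86.1 in wild type. A4 stood apart below both other groups, by -2.85 ± 0.11 against A9 (limma, adjusted p = 0.000108). In Arabidopsis some kelch F-box proteins mark phenylalanine ammonia-lyase for degradation, and whether this protein is their counterpart was not tested. F-box protein PP2-B1 (Solyc01g100000.2.1) was at 12.5, 6.01 and 7.56 in A4 and 41.4, 43.4 and 48.8 in A9 (-2.29 ± 0.23, limma, adjusted p = 0.00258).

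Receptor-like kinases, cell-surface sensors, were called in 13 of 130 cases (10%) in each direction, beside 10.6% and 7.76% over all proteins. For receptor-like kinases the counts were 7 without A4 replicate 3 and 8 without A4 replicate 2 for A4, and 2 without A4 replicate 3, 4 without A4 replicate 2 or A9 replicate 3, 5 without A9 replicate 1 and 25 without A9 replicate 2 and 21 with the replicate number as a block for A9. The kinase Solyc11g056680.1.1 stood at 9.58, 9.58 and 7.8 summed FPKM in A4 and 3.29, 3.32 and 3.03 in A9 (1.24 ± 0.10, limma, adjusted p = 0.00134). The ubiquitin system had 12 of 172 proteins higher in A4 (6.98%) and 7 higher in A9 (4.07%). Both shares were below those over all proteins, 10.6% and 7.76%. For ubiquitin system the counts were 2 without A4 replicate 3 or A9 replicate 1, 3 without A4 replicate 2 or A9 replicate 3 and 5 without A9 replicate 2 for A4 and 0 without A4 replicate 3, 1 without A9 replicate 1 and 2 without A4 replicate 2 or A9 replicate 3 for A9. A ubiquitin carboxyl-terminal hydrolase (Solyc07g005530.2.1), which removes ubiquitin from proteins, was at 93.9, 110.2 and 128 in A4, 14.4, 14.1 and 14.8 in A9 and 10.5, 11.3 and 11.2 in wild type. It was far higher in every A4 library (2.84 ± 0.12, limma, adjusted p = 0.000121).

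**Figure D5:**
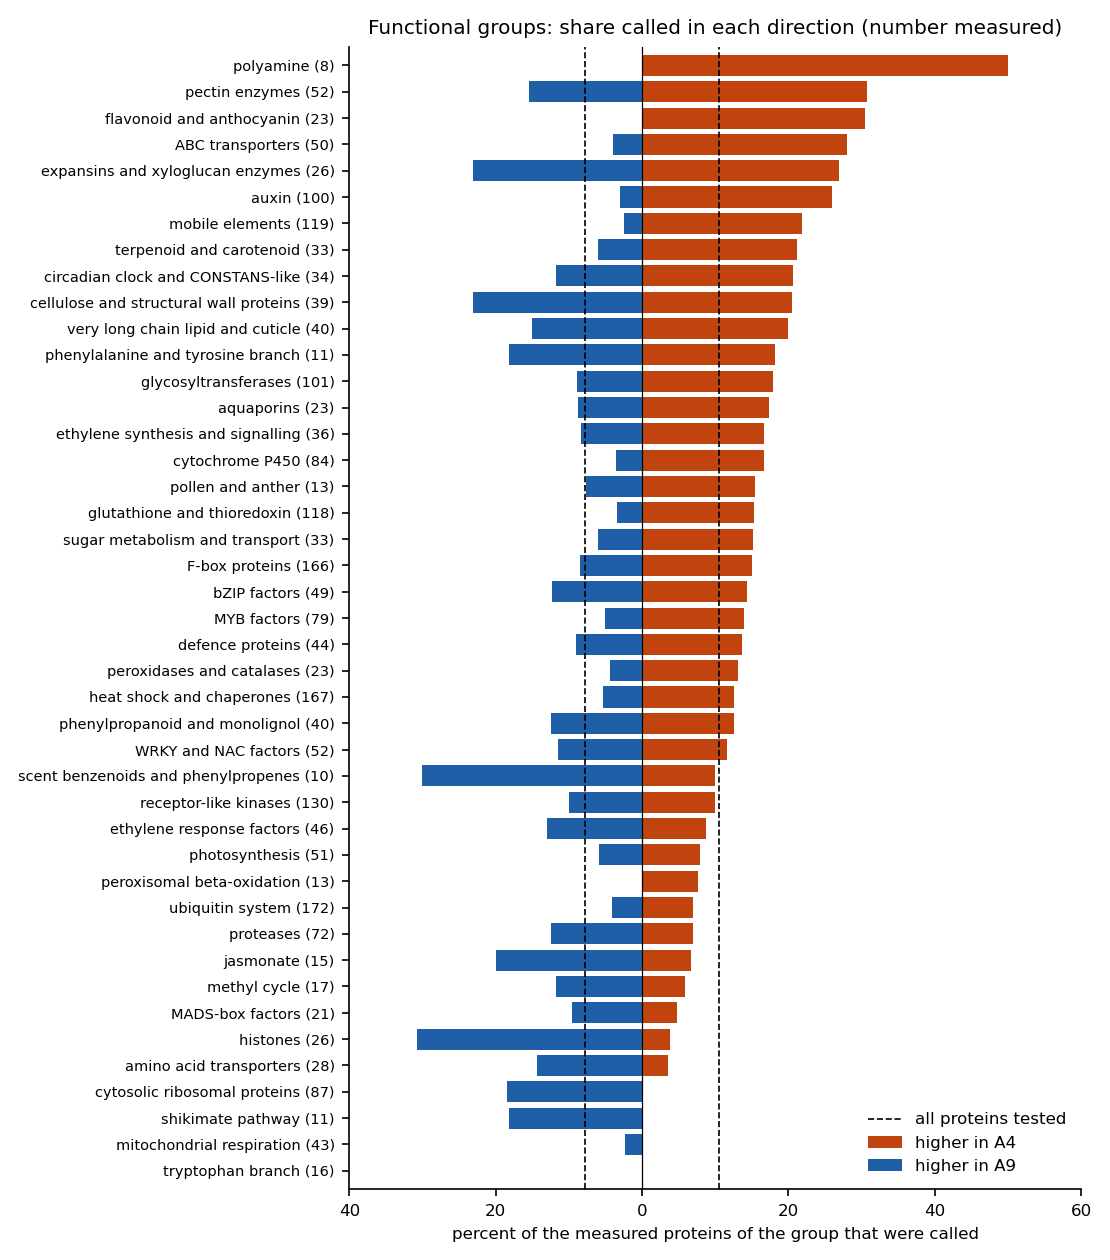
Bars give the percent of measured proteins of each functional group that were called higher in A4 (right) or higher in A9 (left), with the number measured in brackets and dashed lines at the shares over all proteins, 10.6% and 7.76%. Groups with fewer than 8 measured proteins are not drawn, and the bars carry no error since each is 1 count from all 6 libraries.

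Cytochrome P450 enzymes, which add oxygen to many secondary products, had 14 of 84 higher in A4 and 3 higher in A9 (1 without A4 replicate 2 or A4 replicate 3), and the A4 count was 5 without A4 replicate 3, 7 without A9 replicate 3 and 8 without A4 replicate 2. The P450 Solyc01g008650.2.1 stood at 112, 128 and 135 summed FPKM in A4 and 40.8, 44.5 and 39.3 in A9, with no overlap (1.56 ± 0.10, limma, adjusted p = 0.00066). Glycosyltransferases had 18 of 101 higher in A4 and 9 higher in A9. With the replicate number as a block these were 29 and 14, and the A9 count was 1 without A4 replicate 3, 2 without A4 replicate 2 or A9 replicate 3, 4 without A9 replicate 1 and 14 without A4 replicate 1. The glucosyltransferase Solyc08g006350.2.1 was at 705, 506 and 551 in A4, 404, 207 and 243 in A9 and 1403, 1338 and 1418 in wild type, so both lines were below wild type and A9 was lowest. The difference between the lines was 1.09 ± 0.26 (limma, adjusted p = 0.0328, and 0.0635 to 0.0962 without A4 replicate 1, 2 or 3 or without A9 replicate 2 or 3).

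Glutathione and thioredoxin proteins had 18 of 118 higher in A4 and 4 higher in A9, or 31 and 8 with the replicate number as a block. For glutathione and thioredoxin the counts were 2 without A4 replicate 3, 5 without A9 replicate 3, 7 without A9 replicate 1, 8 without A9 replicate 2 and 9 without A4 replicate 2 for A4 and 1 without A4 replicate 2, A9 replicate 1 or A9 replicate 3, 2 without A4 replicate 1 or A4 replicate 3 and 7 without A9 replicate 2 for A9. A glutaredoxin (Solyc06g067960.2.1), a small enzyme that reduces disulphides, was at 4.79, 2.23 and 4.49 summed FPKM in A4, 0.541, 0.601 and 0.927 in A9 and 14.4, 16.4 and 16.5 in wild type. Wild type was the highest and A9 the lowest (1.48 ± 0.24, A4 against A9, limma, adjusted p = 0.0104). Peroxidases and catalases had 3 of 23 higher in A4 and 1 higher in A9 (3 without A9 replicate 2), or 6 and 2 with the block. Peroxidase 1 (Solyc10g076210.1.1) was at 40.8, 62.6 and 34.8 in A4 and 123, 116 and 99.3 in A9, and superoxide dismutase (Solyc06g048410.2.1), which removes superoxide, at 18, 15.7 and 18.8 in A4 and 5.98, 3 and 5.86 in A9. These ran in opposite directions, by -1.31 ± 0.21 and 1.68 ± 0.22 (limma, adjusted p = 0.0111 and 0.00622).

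Defence proteins were called in 6 of 44 cases (13.6%) toward A4 and 4 (9.09%) toward A9, beside 10.6% and 7.76% over all proteins. With the replicate number as a block, 7 were called toward A9. For defence proteins the counts were 2 without A4 replicate 3 or A9 replicate 1 and 3 without A9 replicate 3 for A4 and 2 without A4 replicate 2 or A4 replicate 3 and 8 without A9 replicate 2 for A9. Pathogenesis-related protein PR-1 (Solyc07g006700.1.1), a marker of pathogen response, stood at 20.4, 30.9 and 38.2 summed FPKM in A4, 3.77, 4.12 and 9.53 in A9 and 0.112, 0.673 and 0.415 in wild type. The order was A4, A9, wild type without overlap (2.23 ± 0.35, limma, adjusted p = 0.00996). Kunitz trypsin inhibitor (Solyc06g072220.1.1), a protease blocker, was at 0.0457, 0.188 and 0.227 in A4 and 1.8, 1.48 and 2.58 in A9 (-1.34 ± 0.16, limma, adjusted p = 0.00428). It passed the filter on low values only through A9. The defensin with the highest summed FPKM, Solyc11g028040.1.1, had 1 low library, with 2199.7, 2691 and 2636 in A4 and 2159, 455 and 2287 in A9, and the lines overlapped. Among proteases, 5 of 72 were higher in A4 (2 without A4 replicate 3 and 3 without A4 replicate 2, A9 replicate 1 or A9 replicate 2) and 9 were higher in A9. In A9 the protease count was 3 without A4 replicate 2 or A4 replicate 3 and 5 without A9 replicate 3. Cathepsin B-like cysteine proteinase (Solyc02g076710.2.1) was at 26.1, 26.7 and 28.5 in A4, 50.3, 47 and 48.2 in A9 and 199.7, 197 and 194 in wild type. Both lines were far below wild type, and A4 was below A9 by -0.82 ± 0.07 (limma, adjusted p = 0.00188).

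Chaperones had 21 of 167 proteins higher in A4 (12.6%) and 9 higher in A9 (5.39%), beside 10.6% and 7.76% over all proteins. For heat shock and chaperones the counts were 6 without A4 replicate 3, 9 without A4 replicate 2 and 13 without A9 replicate 1 or A9 replicate 2 for A4 and 4 without A4 replicate 2, A4 replicate 3 or A9 replicate 1 and 5 without A9 replicate 3 for A9. A heat shock protein (Solyc06g052050.2.1) was at 2.58, 1.32 and 2.76 summed FPKM in A4, 57.3, 151 and 43.8 in A9 and 4.19, 1.47 and 5.43 in wild type. It was high in the A9 libraries and lower in the rest, by -4.54 ± 0.45 (limma, adjusted p = 0.00249), in contrast to the group's median of 0.03. The DnaJ 11 chaperone (Solyc02g062160.1.1), a helper of Hsp70, went toward A4, at 63.4, 89.7 and 117 in A4 and 16.4, 15 and 28.4 in A9 (2.13 ± 0.29, limma, adjusted p = 0.00721).

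Of 87 cytosolic ribosomal proteins 0 were higher in A4 by limma (3 at an unadjusted p under 0.05) and 16 were higher in A9, with a median of -0.23. For cytosolic ribosomal proteins the count in A9 was 2 without A4 replicate 2, A9 replicate 1 or A9 replicate 3, 4 without A4 replicate 3, 6 without A4 replicate 1 and 28 without A9 replicate 2, and with the replicate number as a block 3 were higher in A4, as was 1 without A9 replicate 3. 60S ribosomal protein L27 (Solyc06g073300.1.1) stood at 38.7, 29.6 and 34.5 summed FPKM in A4, 57.9, 54.2 and 64.2 in A9 and 31.2, 43.3 and 34.8 in wild type. A9 was above the other groups in every library (-0.77 ± 0.12, limma, adjusted p = 0.00953). The ribosomal proteins with the highest summed FPKM, 40S proteins S18 (Solyc03g078290.2.1) and S7-like (Solyc03g119360.2.1), differed by -0.25 ± 0.17 and 0.15 ± 0.13 and overlapped. Of 26 histones 1 was higher in A4 and 8 were higher in A9, with a median of -0.31. For histones the count in A9 was 1 without A4 replicate 2 or A9 replicate 1, 2 without A9 replicate 3 and 3 without A4 replicate 1 or A4 replicate 3. The histone count in A4 was 0 without A4 replicate 2, A4 replicate 3, A9 replicate 1 or A9 replicate 3. Histone H2A (Solyc12g005270.1.1), a core histone, was at 168, 151 and 166 in A4, 271, 228 and 255 in A9 and 209, 221 and 193 in wild type (-0.63 ± 0.10, limma, adjusted p = 0.00923). Histone H2B (Solyc06g075800.1.1) was the member higher in A4, at 406, 437 and 524 in A4 and 326, 316 and 295 in A9 (0.54 ± 0.12, limma, adjusted p = 0.0248, and 0.0603 to 0.0724 without A4 replicate 2 or 3 or without A9 replicate 1 or 3).

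The largest difference toward A9 by the rule for named proteins carried a cell-cycle name. The mitotic checkpoint kinase BUB1 (Solyc06g051040.2.1), which in dividing cells watches over chromosome attachment, was at 0, 0.0818 and 0.0597 summed FPKM in A4, 30.4, 52.8 and 46.7 in A9 and 0.0536, 0.0253 and 0.0268 in wild type. All A9 libraries were far above all others (-5.37 ± 0.20, limma, adjusted p = 0.000108). Most of that sum came from the locus XLOC_049057 of 230 bases, and the FPKM of so short a locus is uncertain. The other locus, XLOC_014681 of 1489 bases, differed by -2.58 on its own. Mitochondrial respiration had 0 of 43 proteins higher in A4 by limma (2 at an unadjusted p under 0.05, and 2 called with the replicate number as a block) and 1 higher in A9 (0 without A4 replicate 2 or A9 replicate 3 and 3 without A9 replicate 2).

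Mobile elements were called higher in A4 in 26 of 119 cases and higher in A9 in 3, with a median of 0.22. For mobile elements the count in A4 was 10 without A4 replicate 3, 14 without A4 replicate 2 and 16 without A9 replicate 3. At a mean of at least 5 FPKM, 8 of 58 mobile elements were higher in A4 and 3 were higher in A9. The entry with the most loci, the Ty1-A Gag-Pol polyprotein of a retrotransposon (Solyc00g075040.1.1, 170 loci), stood at 987, 870.5 and 853 summed FPKM in A4, 714, 668 and 625 in A9 and 268, 234 and 265 in wild type. Both lines were above wild type and A4 was above A9, by 0.43 ± 0.10 (limma, adjusted p = 0.0317, and 0.0584 to 0.27 without A4 replicate 1, 2 or 3 or without A9 replicate 1, 2 or 3 or with the highest locus alone). A pol polyprotein (Solyc08g060910.1.1) was at 483, 451 and 393 in A4, 483, 432 and 407 in A9 and 104, 83.2 and 109 in wild type, so the lines overlapped while both were above wild type. A retroelement pol polyprotein-like entry (Solyc07g032120.1.1) was highest in the A9 libraries, at 1.78, 2.16 and 1.8 in A4, 25.8, 18.7 and 25.3 in A9 and 2.18, 2.41 and 1.72 in wild type (-3.05 ± 0.14, limma, adjusted p = 0.000197). Copies of such elements are near-identical, so their reads can be split between loci.

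Markers of other flower parts and of green tissue were compared as well. In bulk tissue, fewer cells of a type and less RNA per cell cannot be told apart. The words globosa, deficiens, floral binding protein and pmads, used for petal identity factors, occur in 0 of the tomato protein names, so the corolla label could not be checked by those names. Of 21 MADS-box factors, the family of floral identity regulators, 1 was higher in A4 and 2 were higher in A9 (0 without A4 replicate 2, A4 replicate 3, A9 replicate 1 or A9 replicate 3). The members with the highest summed FPKM, Solyc08g067230.2.1 and Solyc04g081000.2.1, differed by -0.21 ± 0.15 and -0.07 ± 0.10 and overlapped. The MADS-box factor Solyc10g017630.1.1 was at 2.73, 2.96 and 2.96 in A4 and 0.179, 0.086 and 0.193 in A9 (1.75 ± 0.10, limma, adjusted p = 0.000482).

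Pollen and anther names numbered 13, of which 2 were higher in A4 (1 without A4 replicate 2, A4 replicate 3, A9 replicate 1 or A9 replicate 2) and 1 was higher in A9, and their summed FPKM was 196.3 to 226.2 in A4, 234.2 to 253.6 in A9 and 234.8 to 299.7 in wild type. Pistil names numbered 3, of which 2 were higher in A9 (0 without A4 replicate 2, A9 replicate 2 or A9 replicate 3 and 1 without A4 replicate 1, A4 replicate 3 or A9 replicate 1), with 123 to 138 summed FPKM in A4, 153 to 178 in A9 and 80.5 to 109 in wild type. Of the pollen names 1 was listed at 0 in all A4 libraries and 1 in all wild-type libraries, and of the pistil names 0 were. Photosynthesis proteins had 4 of 51 higher in A4 (7.84%) and 3 higher in A9 (5.88%), beside 10.6% and 7.76% over all proteins. Their median difference was 0.29. The A4 count was 8 with the replicate number as a block. The A9 count was 0 without A4 replicate 3 or A9 replicate 3 and 1 without A4 replicate 2 or A9 replicate 1. The summed FPKM of photosynthesis proteins was 1297 to 1897 in A4, 1217 to 1742 in A9 and 2244 to 2700 in wild type. At a mean of at least 5 FPKM, 0 of 31 photosynthesis proteins were higher in A4 by limma and 2 were higher in A9. The part of these tissues in the results above was not tested.

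Wild type stood nearer to A9 for most of what was higher in A4. Of the 387 proteins at least 2-fold higher in A4, wild type was closer to A9 in 342 (88.4%) and closer to A4 in 45. Wild type lay below both lines in 240 of them, between the lines in 128 and above both in 19. Of the 193 proteins at least 2-fold higher in A9, wild type was closer to A9 in 122 (63.2%) and closer to A4 in 71. It lay between the lines in 130 of these, below both in 22 and above both in 41. Over all proteins tested wild type was closer to A9 in 7686 (59.2%) and closer to A4 in 5309. These counts describe levels and carry no test.

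Sums over loci can hide opposed loci. In 74 proteins at least 1 locus was called higher in A4 and another higher in A9, and 10 of these were called in the sum. At least 1 called locus was found in 2908 proteins. Some loci were listed at 0 in every library of 1 line and had a mean of at least 5 FPKM in the other. This held for 31 loci at 0 in A4, all called and at 1 FPKM or more in all 3 A9 libraries, and 24 of them were also listed at 0 in all wild-type libraries. The reverse held for 18 loci, 13 of them also at 0 in wild type. Of the 18, 14 were called and at 1 FPKM or more in all 3 A4 libraries. The other 4 were not called and rested on A4 replicate 1, with 18.3 to 73.8 FPKM there and at most 0.171 in A4 replicates 2 and 3. Both sets of loci were picked by the same values that the fit tests, so their calls are no independent support. Tomato matches were lacking for 26 of the 31 and 17 of the 18, so these loci carry no name here. The filter on low values also let in proteins through 1 line. An A4 mean of at least 1 FPKM and an A9 mean under 1 held for 308, of which 154 were called. The reverse held for 194, of which 50 were called. These proteins too were picked by the values tested, so their calls are no independent support.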

How the data were processed

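The authors deposited FPKM per assembled locus with 1 column per library. FastQC 0.11.2 and Bowtie2 2.2.6 are listed, per the submitters' processing notes, without their roles. How loci were assembled and FPKM scaled is not given in the sources used here. The closest tomato hit of each locus was deposited by the authors in another table, per the file headers, beside percent identity, e-value and a bit score. The unit allows no count test. Depth was estimated from the steps between low FPKM values and is approximate.

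FPKM of kept loci were summed per tomato protein, put on log2(sum + 1) and tested with limma 3.58.1 in R 4.3.3 (trended prior variance, Benjamini-Hochberg over all 12995 proteins or 53477 loci, threshold 0.05). The fit was also run on simulated data with the spread of the A4 libraries and independent libraries. That run does not measure the rate of false calls in these data. Named were all dehydratases, the 15 largest called differences in each direction (mean of at least 5 FPKM, no overlap, e-value up to 1e-10, informative name), and in each list the 4 members of lowest p and the 2 of highest mean. The comparison, lists and rule were chosen with earlier results of these data known.

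Deviations of same-numbered A4 and A9 libraries from the mean of their line correlated at 0.241, 0.261 and 0.250. Those of different-numbered libraries correlated at -0.324 to 0.0658. Deviations from a mean of 3 libraries are tied to each other, so these values are not independent. A fit with the replicate number as a block was added, although the labels state no pairing. Lists were matched by words in tomato names and can hold unrelated members. No reference sequence was used here, so none is printed.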

Additional observations from a re-analysis of the deposited data

How the results depend on the processing

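Of the 268 proteins that the rule names, 186 were called, and 0 of these changed direction under any alternative that tested them. The rule picked many of them by these p-values and differences, and the alternatives use the same libraries. The called share and the steady direction are therefore no independent support. Of the 122 tested under all 16 alternatives listed for them, 67 stayed called in each. The rest of the 186 were not tested under every one, mostly because 123 passed a mean of at least 5 FPKM, and 45 of the rest stayed called wherever tested. A mean of at least 5 FPKM left 1255 proteins called, 635 higher in A4 and 620 higher in A9, and 2992 loci, 1477 and 1515. Of the calls, 57.6% were higher in A4, against 50.6% at that filter and 54.8% with quantile normalization. The fit of all 9 libraries called 1517 proteins and 4419 loci higher in A9. With 1 library left out, 838 to 2097 proteins were called, 593 to 1245 higher in A4 and 245 to 1027 higher in A9, and 2775 to 5950 loci, 1978 to 3650 and 797 to 2300. Without replicate 1, 2 or 3 of both lines, chosen after seeing the data, the proteins numbered 886, 763 and 324. Of these 607, 435 and 279 were higher in A4 and 279, 328 and 45 higher in A9. The loci numbered 2461, 1814 and 1340, with 1615, 1041 and 1027 higher in A4 and 846, 773 and 313 higher in A9. Fewer libraries also leave fewer degrees of freedom, and the part of this in the lower counts was not tested. With the replicate number as a block 2961 proteins and 8534 loci were called, and 9 named proteins gained and 2 lost a call. The losses were Solyc10g006700.1.1 and Solyc01g006400.2.1 (limma, adjusted p = 0.0579 and 0.0510). Gains beside those in the report were Solyc10g081720.1.1, Solyc01g093960.2.1, Solyc11g006460.1.1, Solyc02g078100.2.1, Solyc01g091520.2.1, Solyc03g118110.2.1 and Solyc05g012440.2.1 (limma, adjusted p = 0.0107 to 0.0444), and the block changed no other named call. The dehydratase difference lay between -1401 and -1050 FPKM under its alternatives. By the estimated depth, 1 FPKM on a locus of the median length, 1736 bases, stood for 44.2 to 63.0 fragments in the A4 and A9 libraries. Values far below 1 FPKM rest on few fragments, and the FPKM of very short loci are uncertain.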
